A study of Capra hircus with 7 samples.

Results

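Overexpression of cirRNA28250 in goat mammary gland cells is described here through the transcripts of 2 RNA-seq libraries, cRNA28250 replicates 1 and 2, set against the 1 library of its control, c5NC. The overexpressing cells had received virus carrying cirRNA28250, and every library came from Lanshan dairy goat mammary gland cells in 3D culture. Of 17374 genes listed, 11450 reached 1 FPKM (fragment counts scaled by transcript length and by library size) in at least 2 of these 3 libraries and were compared. A pair of further groups gives context: cKDmix, the knockdown (2 libraries), and c3NC (2 libraries), which the design text lists beside it. The labels do not spell out 5NC and 3NC, give no source culture or animal for the replicates, and do not say what virus the control cells received. The level of the circRNA itself was not analysed here, so the overexpression was not checked in these libraries.

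A circular RNA (circRNA) is a closed loop made when a downstream splice site is joined back to an upstream one, and the lack of free ends protects it from exonucleases. Some circRNAs bind microRNAs or proteins, and others have no known partner. The mammary gland holds secretory luminal epithelium and contractile basal epithelium inside a stroma of fibroblasts, fat cells and vessels, and the stromal cells make much of the collagen and proteoglycan matrix.

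The libraries carried a stromal set of transcripts. DCN, which encodes the matrix proteoglycan decorin, stood at 8015 and 8882 FPKM in cRNA28250 replicates 1 and 2, against 5264 FPKM in c5NC. Epithelial keratins KRT8, KRT18 and KRT5, the epithelial adhesion gene EPCAM and the basal regulator TP63 did not exceed 0.53 FPKM in any of the 7 libraries. The leukocyte gene PTPRC did not exceed 0.02 FPKM and the endothelial gene PECAM1 did not exceed 0.42 FPKM in any library, while the monocyte gene CD14 stood at 195 and 115 FPKM in cRNA28250, against 162 FPKM in c5NC. The keratin gene KRT19 had 0.83 and 0.58 FPKM in cRNA28250, against 5.53 FPKM in c5NC, and KRT14 had 0.07 and 0.78 FPKM, against 4.22 FPKM. KRT8, KRT18, KRT5, EPCAM and TP63 were thus near 0 in all 7 libraries, while KRT19 and KRT14 were present at a low level in c5NC. The cells are called by their label only.

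On the first principal component (48.5% of the variance) the cRNA28250 libraries lay at −14.29 and 12.22 and c5NC at −37.96, with the cKDmix libraries at 50.03 and 57.25 and the c3NC libraries at −37.31 and −29.95. There c5NC lay beside c3NC. On the second principal component (19.96% of the variance) the cRNA28250 libraries lay at 21.53 and 13.44 and c5NC at −52.78, with the cKDmix and c3NC libraries between −8.42 and 18.9, so that on this component c5NC stood apart from the other 6. Genes at 1 FPKM or above numbered 11479 and 11870 in cRNA28250 and 11045 in c5NC. The cKDmix or c3NC values are therefore given beside many of the results below.

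Both cRNA28250 libraries were above c5NC in 5207 of the 11450 genes and below it in 2967. In the remaining 3276 genes (28.6%) they lay on different sides of it or were equal to it. Differences were tested with limma on log2(FPKM + 1), with 1 mean per group over all 7 libraries, and a gene was called if its Benjamini-Hochberg adjusted p was under 0.05 and both cRNA28250 libraries lay on the same side of c5NC. By this rule 896 genes were called (7.83%), of which 618 were higher in cRNA28250 (5.40%) and 278 lower (2.43%). The smallest called difference was 0.86 on the log2 scale. The c5NC group has no replicate, so its spread was taken to equal that of the other groups. The log2 difference between the cRNA28250 libraries had an SD of 0.585, against 0.306 between the cKDmix and 0.30 between the c3NC libraries, so p-values may be too small.

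The counts depended on the control and on the libraries that gave the spread. Fitted with the 3 libraries alone, 217 genes were called, 158 higher and 59 lower. Using c3NC as the control instead, a choice made after the values were seen, gave 516 calls. Of these, 432 were higher and 84 lower, and 214 were also among the 896. The median gene was 0.14 higher in cRNA28250. Quantile normalization moved that median to −0.02 and gave 374 higher and 302 lower genes, so that 55.3% of calls were higher, against 69.0% without it. Scaling by the median ratio moved it to −0.01 and gave 521 higher and 418 lower genes, 55.5% higher.

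**Figure D1:**
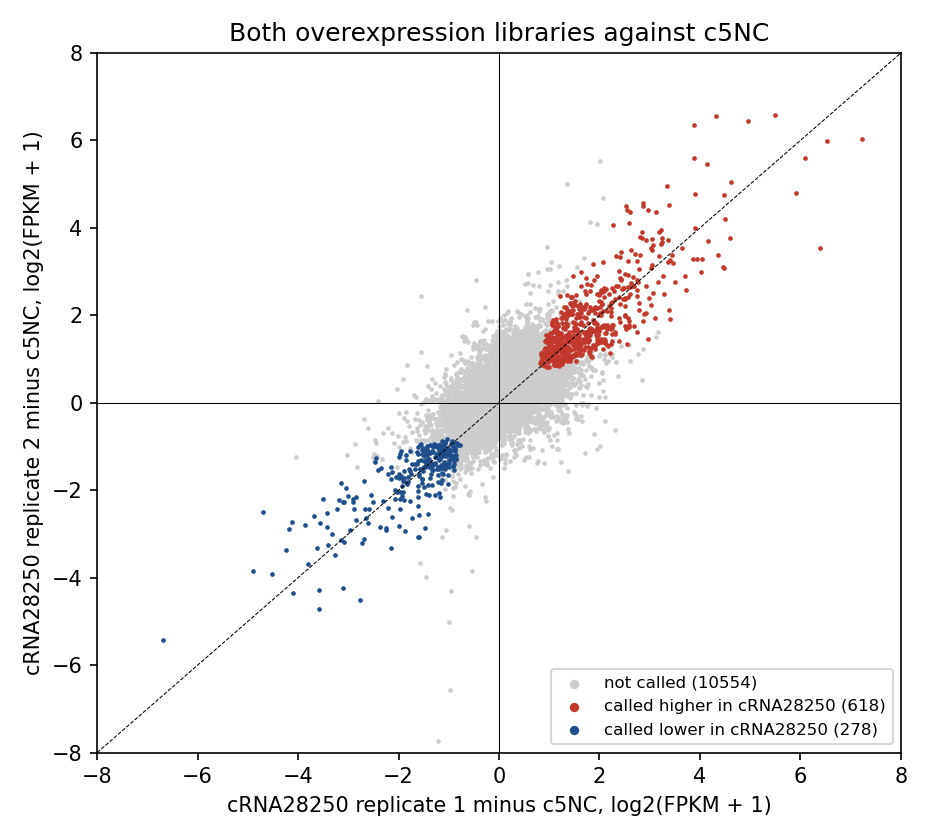
Each point is 1 of the 11450 genes compared, with the log2(FPKM + 1) difference of cRNA28250 replicate 1 from c5NC on the x axis and that of replicate 2 on the y axis. Called genes are coloured, and the 618 higher genes lie in the upper right and the 278 lower genes in the lower left.

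The position of c5NC among the 7 libraries differed between genes called and genes compared. It was the lowest library in 487 of the 618 higher genes (78.8%), against 21.0% of all genes compared. It was the highest library in 256 of the 278 lower genes (92.1%), against 14.5% of all genes compared. Since the calls use c5NC, these shares are a description. Both cRNA28250 libraries lay above all 3 control libraries in 436 of the higher genes (3.81% of the genes compared) and below all 3 in 102 of the lower genes (0.891%). In 259 higher genes (2.26%) they lay above all 5 other libraries and in 67 lower genes (0.585%) below all 5.

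Genes that were high in the overexpressing cells and low in every other library were a mixed set, chosen after their values were seen as the 12 with the widest gap to the other 5 libraries. NDUFA4L2, a mitochondrial protein related to a subunit of cytochrome oxidase, led them. It stood at 204 and 144 FPKM in cRNA28250, against 1.99 FPKM in c5NC. The cKDmix libraries had 2.60 and 1.79 FPKM and the c3NC libraries 1.31 and 1.97 FPKM, so no other library came near. The difference was 5.85 ± 0.31 (log2 ± SE, limma, Benjamini-Hochberg adjusted p = 3.53e-04). The glutathione peroxidase gene GPX3, whose secreted product reduces peroxides, stood at 174 and 486 FPKM in cRNA28250, against 4.61 FPKM in c5NC. Its cKDmix values of 6.78 and 6.97 FPKM and c3NC values of 2.24 and 2.67 FPKM were also low (difference from c5NC 5.70 ± 0.51, limma, Benjamini-Hochberg adjusted p = 0.00147). NDN, which encodes the growth suppressor necdin, had 24.8 and 20.2 FPKM in cRNA28250, against 0.15 FPKM in c5NC, and no more than 0.12 FPKM in the cKDmix and c3NC libraries. CRYM, whose protein binds thyroid hormone in the cytosol, had 28.0 and 29.9 FPKM in cRNA28250, against 0.94 FPKM in c5NC. The log2 differences from c5NC were 4.35 ± 0.25 for NDN and 3.95 ± 0.26 for CRYM. The gap to the other libraries is what these genes were chosen by, and NDN and CRYM entered the comparison through the cRNA28250 libraries alone.

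Several other members of this set encode proteins best known from blood cells, nerve or muscle. RAB44, a large Rab-family GTPase, stood at 12.8 and 11.7 FPKM in cRNA28250, against 0.10 FPKM in c5NC. ARHGDIB, whose protein is abundant in blood cells, stood at 36.6 and 26.2 FPKM in cRNA28250, against 1.10 FPKM in c5NC. CD8B, a chain of the CD8 co-receptor of T cells, had 19.4 and 9.51 FPKM in cRNA28250 and was listed at 0 in c5NC. The leukocyte gene PTPRC, by comparison, was at 0 and 0.02 FPKM in cRNA28250 and at 0 in c5NC. CNTN1, a neuronal adhesion protein, had 8.75 and 11.9 FPKM in cRNA28250, against 0.04 FPKM in c5NC. The neuropeptide receptor gene NPY1R had 3.97 and 5.78 FPKM in cRNA28250, against 0.16 FPKM in c5NC, and the small heat shock gene HSPB7 had 6.06 and 6.09 FPKM, against 0.04 FPKM. F11R, which encodes the junctional adhesion molecule JAM-A, had 5.40 and 4.90 FPKM in cRNA28250, against 0.05 FPKM in c5NC. PTPRC aside, all of these genes were called higher, with log2 differences between 2.32 for NPY1R and 3.93 for ARHGDIB where c5NC was above 0. These genes too were chosen by their gap. All but ARHGDIB entered the comparison through the cRNA28250 libraries alone, so the calls are a description.

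Kallikrein-related serine proteases, which cut adhesion proteins of the outer skin layer, were among the genes above all other libraries. KLK7 had 19.95 and 97.6 FPKM in cRNA28250, against 0.05 FPKM in c5NC. The cKDmix libraries had 5.21 and 4.98 FPKM and the c3NC libraries 0.24 and 0.73 FPKM. The 2 overexpressing libraries differed widely in it, yet both were above the rest. Its difference from c5NC alone was 5.44 ± 0.75 (limma, Benjamini-Hochberg adjusted p = 0.00654). KLK8 had 4.96 and 16.4 FPKM in cRNA28250 and was listed at 0 in c5NC. Both genes entered the comparison through the cRNA28250 libraries alone, so their place above the others is a description. The 2 genes are paralogs, and how reads shared between paralogs were counted is not given in the sources used here.

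**Figure D2:**
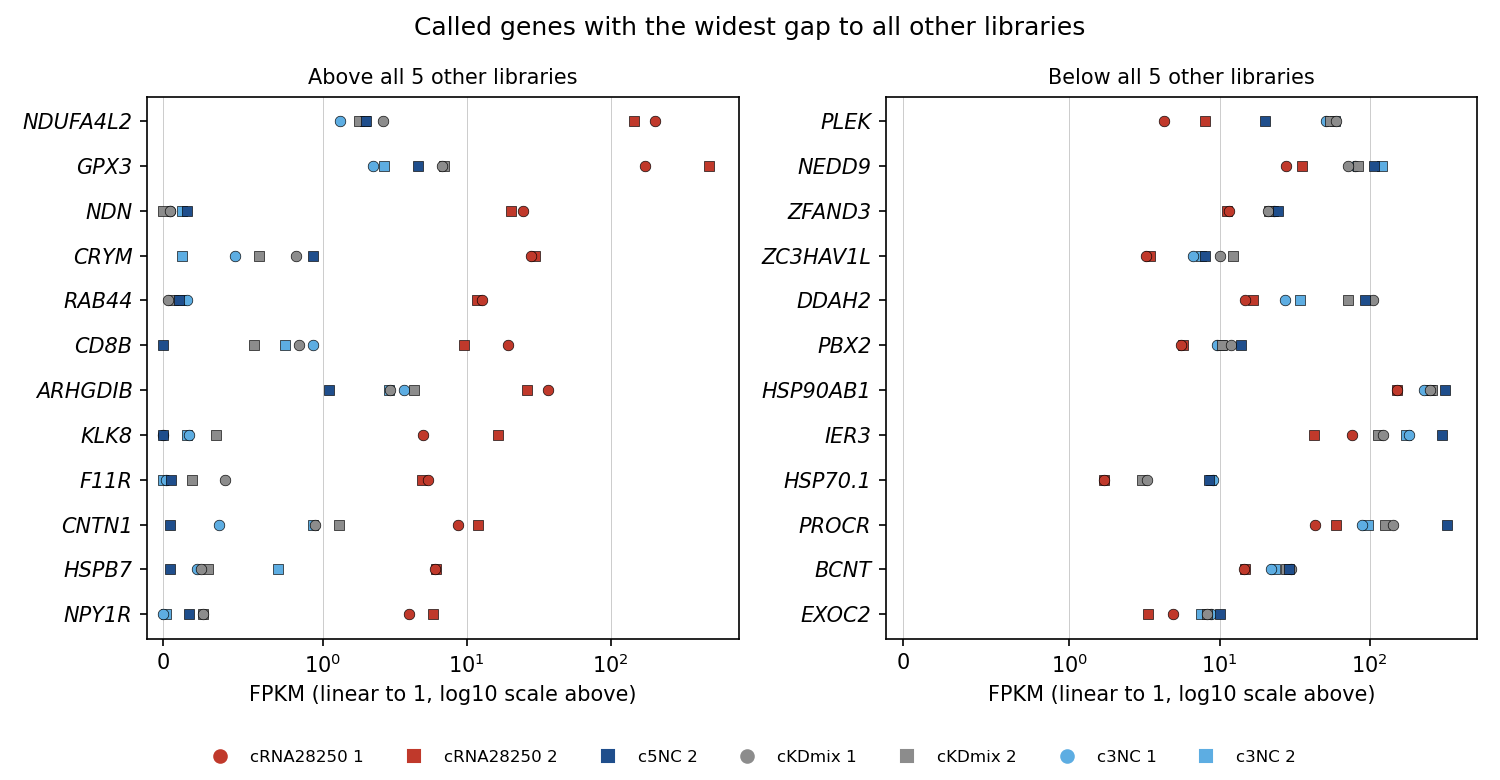
FPKM on a log-like axis (x) in all 7 libraries for the 12 genes with the widest gap above and the 12 with the widest gap below all 5 other libraries (rows), chosen after their values were seen. The cRNA28250 points of NDUFA4L2, GPX3 and NDN stand far right of every other library, while the gaps below the others, as for HSP90AB1 at 152 and 152 FPKM against 318 FPKM in c5NC, are narrower.

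Genes below all 5 other libraries showed smaller differences. PLEK, a protein kinase C substrate of platelets and leukocytes, had 4.29 and 7.95 FPKM in cRNA28250, against 20.1 FPKM in c5NC. The cKDmix libraries had 59.8 and 54.5 FPKM and the c3NC libraries 51.2 and 58.8 FPKM, so c5NC was itself the lowest of the other 5. NEDD9, a scaffold of focal adhesions, stood at 27.7 and 35.5 FPKM in cRNA28250, against 106 FPKM in c5NC. PROCR, the receptor of protein C, had 43.1 and 59.4 FPKM in cRNA28250, against 326 FPKM in c5NC. The differences were −1.62 ± 0.32 for PLEK, −1.73 ± 0.30 for NEDD9 and −2.67 ± 0.27 for PROCR on the log2 scale. HSP90AB1, a constitutive cytosolic chaperone, had 152 and 152 FPKM in cRNA28250, against 318 FPKM in c5NC, and was the 1 call among the 13 compared genes of the heat shock list (−1.06 ± 0.24, limma, Benjamini-Hochberg adjusted p = 0.0409). HSP70.1, a heat shock gene outside that list, had 1.71 and 1.69 FPKM in cRNA28250, against 8.51 FPKM in c5NC, and HSPB7, also outside it, was called higher. The HOX cofactor gene PBX2 had 5.57 and 5.72 FPKM in cRNA28250, against 13.9 FPKM in c5NC, and the exocyst subunit gene EXOC2 had 4.92 and 3.35 FPKM, against 10.1 FPKM.

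Among all called genes the largest rise was that of ACTG2, the smooth muscle gamma actin, and it shows how c5NC can stand alone. ACTG2 had 393 and 172 FPKM in cRNA28250, against 1.64 FPKM in c5NC (6.63 ± 0.44, limma, Benjamini-Hochberg adjusted p = 6.81e-04). The cKDmix libraries had 258 and 218 FPKM and the c3NC libraries 161 and 189 FPKM. Those 4 libraries thus stood near the overexpressing ones, and c5NC alone was low. MXRA8, a cell surface adhesion protein, had 134 and 92.8 FPKM in cRNA28250, against 0.48 FPKM in c5NC. It had 81.1 and 76.6 FPKM in cKDmix and 3.37 and 1.76 FPKM in c3NC, so the overexpression and knockdown libraries all lay above the 3 controls. LY6E, an interferon-responsive surface protein, stood at 89.0 and 190 FPKM in cRNA28250, against 0.99 FPKM in c5NC, with 30.6 and 26.1 FPKM in cKDmix and 18.5 and 39.4 FPKM in c3NC. MGP, an inhibitor of calcification of matrix, had 111 and 153 FPKM in cRNA28250, against 3.59 FPKM in c5NC, and 82.9 and 53.3 FPKM in c3NC. VAT1L had 68.7 and 31.4 FPKM in cRNA28250, against 0.16 FPKM in c5NC, and overlapped c3NC at 51.8 and 28.3 FPKM. The chemokine gene CXCL14 had 279 and 37.4 FPKM in cRNA28250, against 2.31 FPKM in c5NC, with a wide gap between the overexpressing libraries. MXRA8, LY6E and VAT1L, under 1 FPKM in c5NC, entered the comparison through the cRNA28250 libraries alone.

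The largest falls were mostly genes high in c5NC alone. CLCA2, a membrane protein of stratified epithelium, had 0.47 and 2.52 FPKM in cRNA28250, against 150 FPKM in c5NC. The cKDmix libraries had 1.84 and 1.90 FPKM and the c3NC libraries 0.13 and 0.51 FPKM, so that 6 of 7 libraries were low (−6.05 ± 0.47, limma, Benjamini-Hochberg adjusted p = 9.78e-04). HAS3, a hyaluronan synthase, had 4.54 and 10.6 FPKM in cRNA28250, against 165 FPKM in c5NC. PLTP, which transfers phospholipids between lipoproteins, had 223 and 100.6 FPKM in cRNA28250, against 2682 FPKM in c5NC. The other 4 libraries held between 7.65 and 12.8 FPKM of HAS3 and between 211 and 294 FPKM of PLTP, and so overlapped the overexpressing range or came close to it. C5AR1, the receptor of the complement fragment C5a, had 2.45 and 1.92 FPKM in cRNA28250, against 58.1 FPKM in c5NC. COLGALT2, a collagen galactosyltransferase, had 5.86 and 6.41 FPKM in cRNA28250, against 94.4 FPKM in c5NC. Both genes were higher in cRNA28250 than in the c3NC libraries, where C5AR1 had 0.59 and 0.93 FPKM and COLGALT2 0.21 and 0.23 FPKM. DIO3, the deiodinase that inactivates thyroid hormone, had 33.8 and 9.38 FPKM in cRNA28250, against 237 FPKM in c5NC, and 1.6 and 0.76 FPKM in c3NC. HJURP, the chaperone that loads the centromeric histone, had 4.79 and 2.54 FPKM in cRNA28250, against 68.1 FPKM in c5NC. CARD10, a scaffold of NF-kB signalling, had 1.48 and 3.59 FPKM in cRNA28250, against 46.2 FPKM in c5NC. The tight junction gene CLDN1 had 6.42 and 2.36 FPKM, against 62.6 FPKM. Apart from CLCA2, the log2 differences of the genes in this paragraph lay between −4.37 for HAS3 and −3.65 for DIO3.

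**Figure D3:**
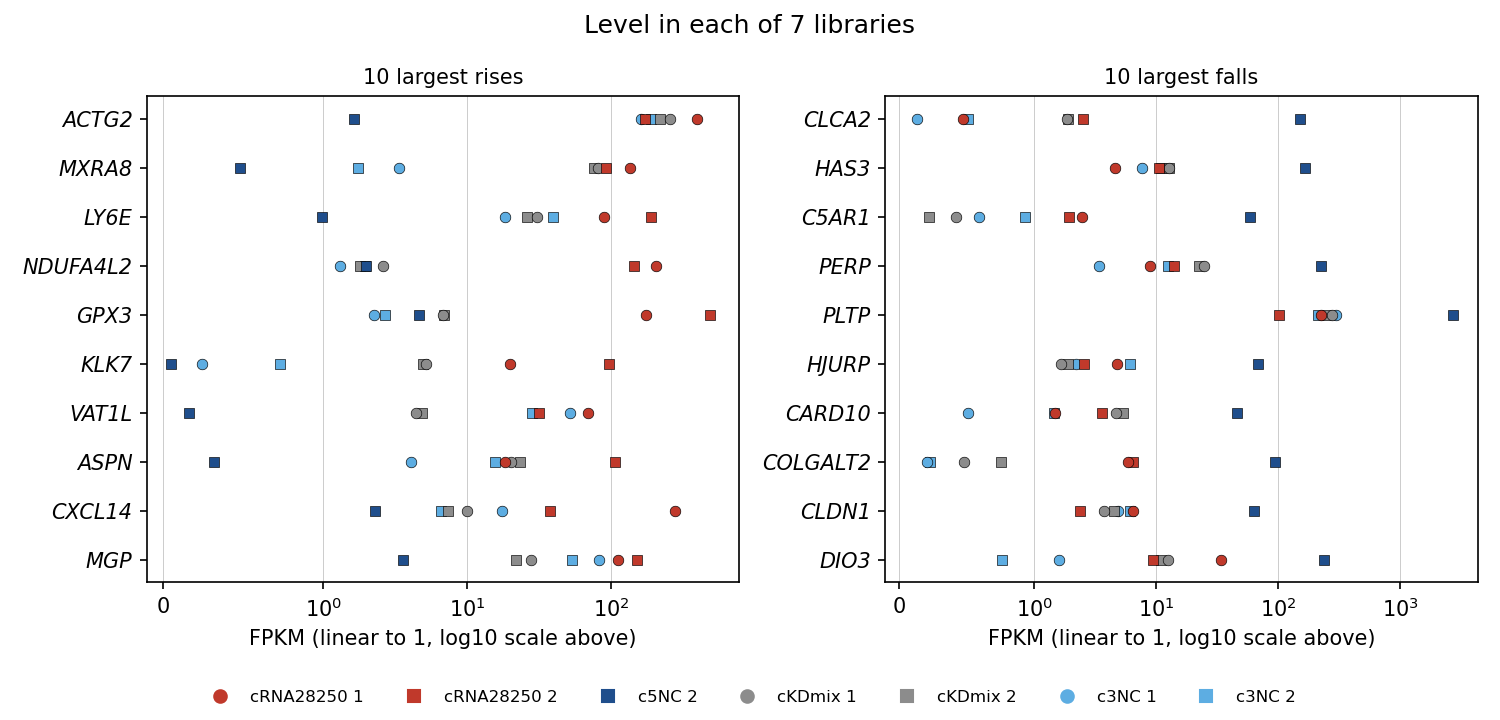
FPKM on a log-like axis (x) in all 7 libraries for the 10 genes with the largest rise and the 10 with the largest fall among called genes (rows). The c5NC point is the extreme one in most rows, as for CLCA2 at 150 FPKM, whereas for NDUFA4L2 and GPX3 the cRNA28250 points are.

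Lists of genes with a shared role were read against the background of 5.40% called higher and 2.43% called lower. Leaving out cRNA28250 replicate 1 or 2, and with it the spread of that pair, gave 2675 or 1865 calls over all genes, and list counts moved too. The 5.40% and 2.43% are thus no background for list counts from those 2 fits, and list medians are given for them instead. The median of interferon-stimulated genes, for example, was then 0.46 or 0.39, and that of p53 targets 0.77 or 0.17.

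The contractile genes of smooth muscle and myoepithelium were higher in the overexpressing cells. Of 18 compared, 16 had both cRNA28250 libraries above c5NC, and 6 rose and none fell (median log2 difference 1.01, or 0.86 above the median of all genes). ACTA2, smooth muscle alpha actin, had 432 and 384 FPKM in cRNA28250, against 63.5 FPKM in c5NC (2.66 ± 0.31, limma, Benjamini-Hochberg adjusted p = 0.00374). The actin-binding gene TAGLN had 986 and 1013 FPKM in cRNA28250, against 162 FPKM in c5NC, and the tropomyosin gene TPM2 had 432 and 737 FPKM, against 157 FPKM. CNN1, which encodes calponin, had 8.08 and 13.7 FPKM in cRNA28250, against 0.10 FPKM in c5NC, and was the 1 contractile gene that rose above all 3 controls. The cKDmix libraries had still more CNN1, at 29.99 and 29.65 FPKM. CNN1 entered the comparison through the cRNA28250 libraries alone. For ACTA2 the c3NC libraries had 623 and 834 FPKM, above the overexpressing ones. With c3NC as the control, 2 contractile genes were called higher and 2 lower (median −0.09). With the 3 libraries alone 3 were called higher. Without cRNA28250 replicate 1 the contractile median was 1.42, and without replicate 2 it was 0.77. MYH11, the smooth muscle myosin, had 15.4 and 15.1 FPKM in cRNA28250, against 12.7 FPKM in c5NC, and DES did not exceed 0.20 FPKM in any library. Fewer cells of a type and less RNA per cell cannot be told apart in such bulk libraries. Reads shared by the closely related actins may also have been split between ACTA2 and ACTG2 in a way the sources used here do not give.

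Pericyte genes numbered 7, of which 3 rose. Besides NDUFA4L2 these were ABCC9, a subunit of a potassium channel, and KCNA5, another potassium channel. ABCC9 had 31.5 and 34.3 FPKM in cRNA28250, against 4.29 FPKM in c5NC, and KCNA5 had 1.63 and 1.84 FPKM, against 0.27 FPKM. The other 4 were not called and split in direction. NOTCH3, a Notch receptor, had 11.4 and 6.86 FPKM in cRNA28250 and 15.6 FPKM in c5NC, and the growth factor receptor gene PDGFRB had 65.3 and 32.6 FPKM in cRNA28250 and 56.4 FPKM in c5NC. KCNJ8, the channel partner of ABCC9, had 13.5 and 26.7 FPKM in cRNA28250 and 15.2 FPKM in c5NC, and the proteoglycan gene CSPG4 had 16.1 and 7.04 FPKM and 5.06 FPKM. Against c3NC, 2 pericyte genes were called higher and 1 lower. The pericyte marker RGS5 did not exceed 0.17 FPKM in any library.

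Of 15 fibroblast genes, 6 rose and none fell (median 0.68), and 4 of the 9 not called had both cRNA28250 libraries below c5NC. DPT, the matrix protein dermatopontin, had 84.9 and 116 FPKM in cRNA28250, against 8.12 FPKM in c5NC (3.46 ± 0.26, limma, Benjamini-Hochberg adjusted p = 9.78e-04). THY1, a surface marker of fibroblasts, had 84.3 and 140 FPKM in cRNA28250, against 8.36 FPKM in c5NC. Both cRNA28250 libraries were above all 3 controls for THY1, while for DPT the c3NC libraries, at 87.9 and 80.4 FPKM, overlapped them. For THY1 the cKDmix libraries, at 83.1 and 75.35 FPKM, were close to the lower of the overexpressing ones. PDGFRA, a growth factor receptor, had 27.6 and 11.9 FPKM in cRNA28250, against 3.24 FPKM in c5NC, with 17.5 and 13.6 FPKM in c3NC. FAP, a surface protease of activated fibroblasts, had 41.3 and 68.0 FPKM in cRNA28250, against 16.4 FPKM in c5NC, and MFAP5, of elastic microfibrils, had 796 and 1718 FPKM, against 238 FPKM. Against c3NC, 2 of the 15 fibroblast genes were called higher and none lower, and 2 were called higher with the 3 libraries alone. VIM, the intermediate filament vimentin, was not called at 3605 and 4033 FPKM in cRNA28250 and 7644 FPKM in c5NC. FBLN2, the matrix protein fibulin-2, had 201 and 97.1 FPKM in cRNA28250 and 378 FPKM in c5NC, and S100A4 and FBLN1 were the other two below c5NC in both.

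The small leucine-rich proteoglycans, which bind collagen fibrils, gave 4 called higher of 9 and none lower (median 1.76). LUM, or lumican, had 2647 and 3275 FPKM in cRNA28250, against 757 FPKM in c5NC. The c3NC libraries had 2031 and 2137 FPKM, below both overexpressing libraries (1.96 ± 0.39 from c5NC, limma, Benjamini-Hochberg adjusted p = 0.0242). PRELP had 38.3 and 22.5 FPKM in cRNA28250, against 2.46 FPKM in c5NC, and again no more than 10.8 FPKM in c3NC. ECM2 had 7.67 and 15.9 FPKM in cRNA28250, against 1.25 FPKM in c5NC, with 10.2 and 14.8 FPKM in c3NC. Against c3NC, 1 of the 9 was called higher. ASPN, or asporin, had 18.5 and 106 FPKM in cRNA28250, against 0.32 FPKM in c5NC. Of 19 collagen chains, 1 was called higher and 1 lower. Without cRNA28250 replicate 2 the median of the collagen list was 1.17, and without replicate 1 it was −0.38. With all libraries COL5A3 rose, with 30.8 and 13.4 FPKM in cRNA28250, against 1.39 FPKM in c5NC. COL4A5, a basement membrane chain, fell to 1.28 and 3.39 FPKM in cRNA28250, against 19.6 FPKM in c5NC. COL1A1, the main fibrillar chain, had 1591 and 458 FPKM in cRNA28250 and 377 FPKM in c5NC and was not called. The collagen crosslinking gene LOX fell to 165 and 170 FPKM in cRNA28250, against 635 FPKM in c5NC, and the integrin-binding gene TGFBI rose to 30.6 and 17.6 FPKM, against 0.91 FPKM. TGFBI was higher still in the cKDmix libraries, at 42.6 and 45.4 FPKM, and in the c3NC libraries, at 47.3 and 98.4 FPKM. LOX had 188 and 205 FPKM in cKDmix and 152 and 259 FPKM in c3NC, all far below c5NC. LOX and TGFBI were the only calls among 17 matricellular and elastic fibre genes (median 0.16).

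**Figure D4:**
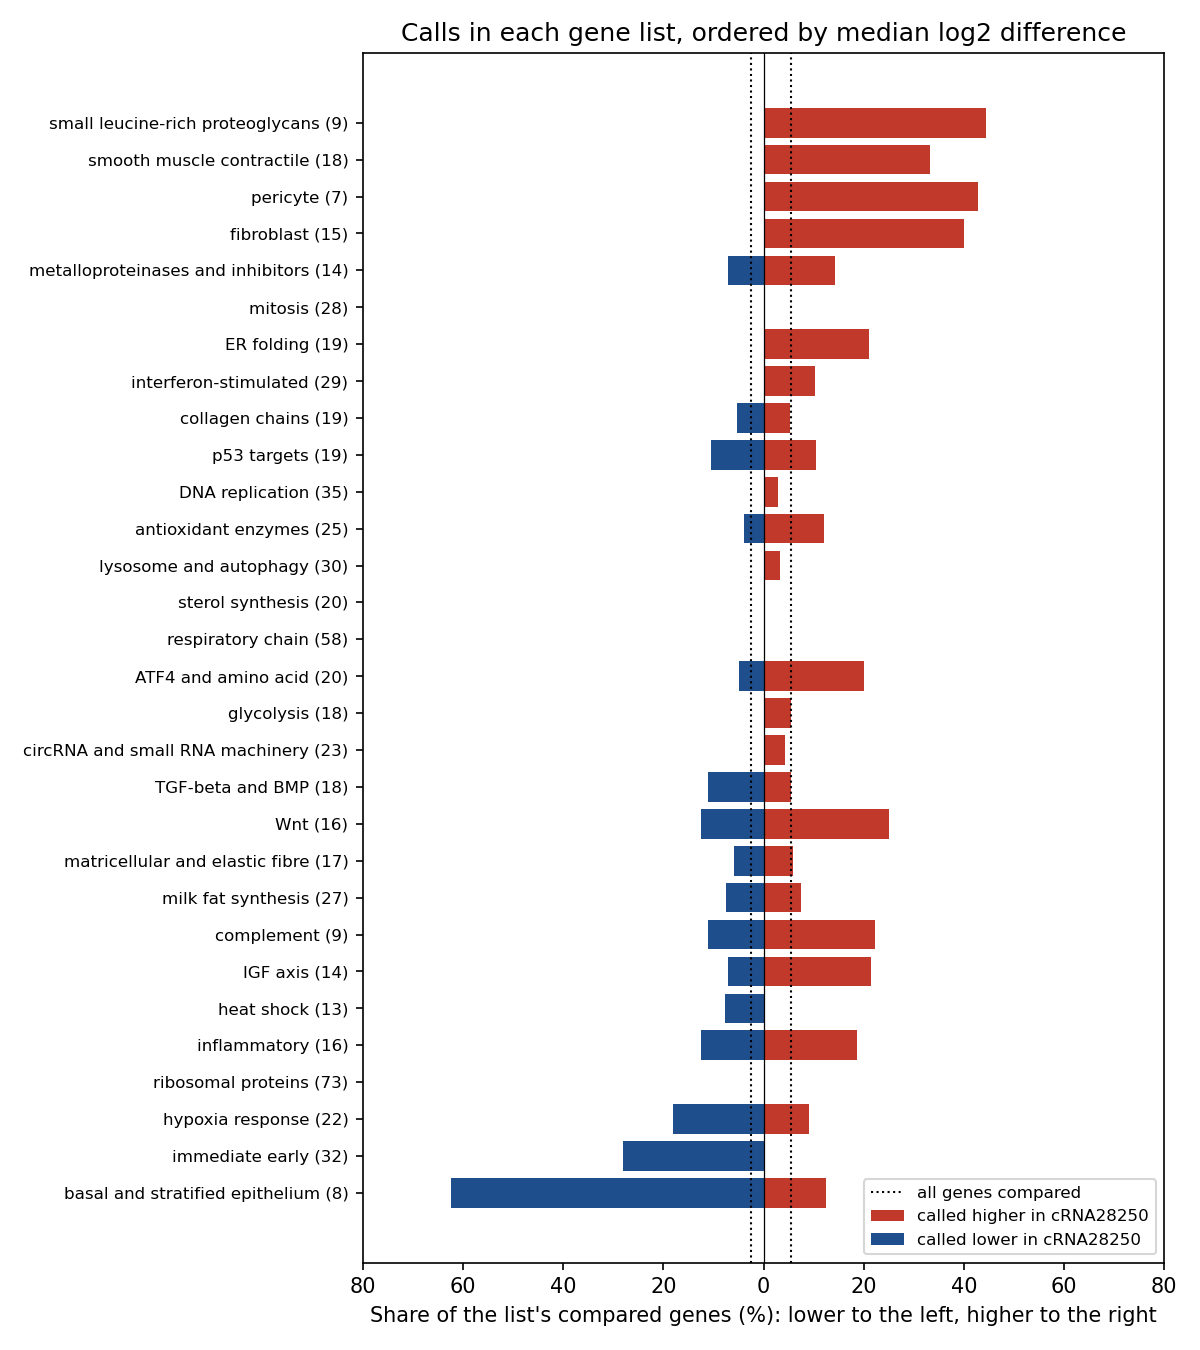
Members of each gene list that were called higher or lower in cRNA28250 than in c5NC (x, percent of the compared genes of the list, lower to the left of 0 and higher to the right) for the lists with at least 5 genes compared (rows, with the number compared). Dotted lines mark the 2.43% and 5.40% of all genes compared. Immediate early genes have 9 of 32 lower and none higher, basal and stratified epithelium 5 of 8 lower, and the contractile list 6 of 18 higher and none lower.

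Genes of basal and stratified epithelium were lower. Of 8 compared, 5 fell and 1, KLK7, rose (median −3.14). SERPINB5, the serpin maspin, had 2.54 and 2.92 FPKM in cRNA28250, against 36.3 FPKM in c5NC. The desmosome gene DSP had 3.18 and 2.0 FPKM in cRNA28250, against 26.5 FPKM in c5NC, and the laminin receptor gene ITGA6 had 7.85 and 6.59 FPKM, against 84.5 FPKM. PERP, a desmosome protein, had 8.88 and 13.97 FPKM in cRNA28250, against 225 FPKM in c5NC. None of the 5 lay below all 3 control libraries. With c3NC as the control, 3 members were called higher and none lower. Summed over the list, FPKM came to 102 and 171 in cRNA28250 and 692 in c5NC, and KLK7 gave 97.6 FPKM of the replicate 2 sum. The sums were 99.8 and 110 in cKDmix and 55.1 and 63.8 in c3NC, so that c5NC had by far the highest sum. For ITGA6 the cKDmix libraries, at 34.3 and 42.4 FPKM, stood between c5NC and the overexpressing ones. The part of this epithelial signal in the other differences was not tested. Of the 4 luminal genes compared, the protease inhibitor gene SPINT2 rose to 12.7 and 17.6 FPKM in cRNA28250, against 1.58 FPKM in c5NC. The keratin gene KRT7 fell to 0.55 and 1.22 FPKM in cRNA28250, against 3.81 FPKM in c5NC.

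Immediate early genes, which cells switch on within minutes of a stimulus or of handling, were lower in the overexpressing cells. Of 32 compared, 26 had both cRNA28250 libraries below c5NC, 9 fell and none rose (median −1.32). IER3 had 75.7 and 42.4 FPKM in cRNA28250, against 305 FPKM in c5NC (−2.41 ± 0.34, limma, Benjamini-Hochberg adjusted p = 0.00735). Its cKDmix values of 122 and 114 FPKM and its c3NC values of 181 and 174 FPKM were also above the overexpressing libraries. ZFP36, which destabilises cytokine messages, had 107 and 47.0 FPKM in cRNA28250, against 480 FPKM in c5NC. JUNB, a subunit of the AP-1 factor, had 184 and 93.8 FPKM in cRNA28250, against 563 FPKM in c5NC, and MYC, a growth regulator, had 10.4 and 13.2 FPKM, against 29.4 FPKM. DUSP1, a phosphatase of MAP kinases, had 144 and 88.2 FPKM in cRNA28250, against 381 FPKM in c5NC. These 5 genes lay below all 3 controls, and BTG2, IER2, FOSL2 and KLF4 fell without doing so. Summed FPKM of the list was 2639 and 1173 in cRNA28250, 5706 in c5NC, 1603 and 1592 in cKDmix and 2986 and 3682 in c3NC. With c3NC as the control, 2 genes were called lower and 2 higher (median −0.54), and with the 3 libraries alone 2 were called lower. Without cRNA28250 replicate 1 the median was −1.97, and without replicate 2 it was −0.94.

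Some immediate early genes differed widely between the overexpressing libraries themselves. FOS, the partner of JUN in AP-1, had 300.2 and 5.15 FPKM in cRNA28250 and 587 FPKM in c5NC, with 1.81 and 1.97 FPKM in cKDmix and 367 and 489 FPKM in c3NC. FOSB had 173 and 0.90 FPKM in cRNA28250 and 404 FPKM in c5NC. Replicate 1 was thus close to the control libraries in these genes and replicate 2 close to the knockdown libraries. EGR1 had 155 and 8.59 FPKM in cRNA28250 and 308 FPKM in c5NC, JUN had 249 and 23.4 FPKM and 480 FPKM, and KLF2 had 17.0 and 0.81 FPKM and 25.2 FPKM. None of them was called (limma, Benjamini-Hochberg adjusted p between 0.194 and 0.270), and together with ANGPTL5 they are the 6 abundant genes with the widest gap between the overexpressing libraries. ANGPTL5 ran the other way, with 3.73 and 57.9 FPKM in cRNA28250 and 0.84 FPKM in c5NC. Over all genes compared, 936 (8.17%) differed by at least 1 log2 unit between the overexpressing libraries, 318 of them higher in replicate 1 and 618 higher in replicate 2.

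**Figure D5:**
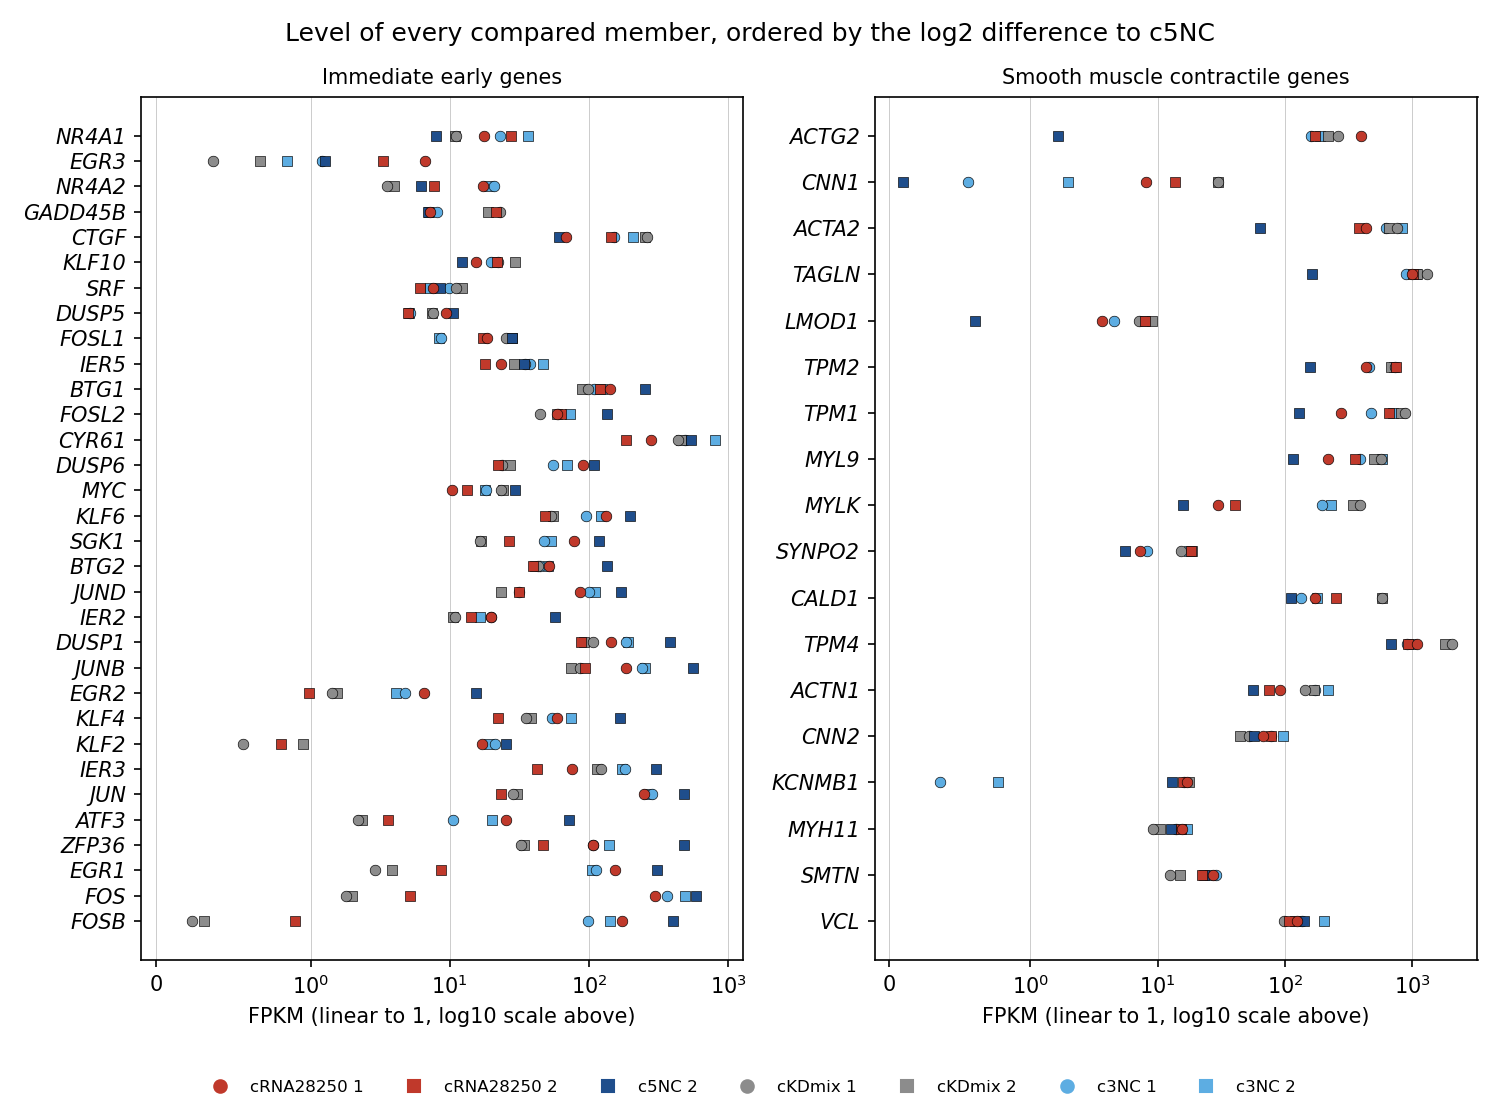
FPKM on a log-like axis (x) in all 7 libraries for immediate early and contractile genes (rows). Replicate 2 of cRNA28250 lies far left of replicate 1 for FOS (5.15 and 300.2 FPKM), and c5NC is the lowest library for ACTG2 (1.64 FPKM).

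Genes of protein folding in the endoplasmic reticulum gave 4 called higher of 19 and none lower (median 0.56). HSP90B1, the chaperone GRP94, had 804 and 551 FPKM in cRNA28250, against 169 FPKM in c5NC. Its c3NC values of 205 and 268 FPKM were lower too, while its cKDmix values were 708 and 771 FPKM (1.97 ± 0.34 from c5NC, limma, Benjamini-Hochberg adjusted p = 0.0149). SDF2L1, a chaperone partner, had 44.0 and 51.6 FPKM in cRNA28250, against 9.89 FPKM in c5NC. SEC61B, a subunit of the translocation channel, had 140 and 125 FPKM in cRNA28250, against 48.2 FPKM in c5NC. With the 3 libraries alone 2 of the 19 were called, and against c3NC 1. Without cRNA28250 replicate 2 the list median was 1.02, and without replicate 1 it was 0.35. The fourth, CRELD2, had 28.8 and 11.4 FPKM in cRNA28250, against 1.85 FPKM in c5NC, and overlapped c3NC at 16.1 and 12.2 FPKM.

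Targets of ATF4, the transcription factor of the amino acid response, gave 4 called higher and 1 lower of 20. The serine synthesis genes PSAT1 and PSPH were among them. PSAT1 had 17.8 and 15.9 FPKM in cRNA28250, against 0.81 FPKM in c5NC, and PSPH had 20.8 and 20.03 FPKM, against 5.81 FPKM. PSPH lay above all 3 controls, and PSAT1 did not, since the c3NC libraries had 27.0 and 11.7 FPKM. PYCR1, of proline synthesis, rose to 49.6 and 43.3 FPKM in cRNA28250, against 24.3 FPKM in c5NC, and the hormone gene STC2 rose to 7.53 and 4.76 FPKM, against 1.08 FPKM. Both were below the c3NC libraries, which had 60.8 and 59.5 FPKM of PYCR1 and 19.0 and 14.7 FPKM of STC2. Unlike these, the transcription factor gene ATF5 fell to 56.3 and 61.8 FPKM in cRNA28250, against 151 FPKM in c5NC. ATF4 itself had 448 and 535 FPKM in cRNA28250 and 390 FPKM in c5NC and was not called.

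Secreted signals and their receptors changed in both directions. Among 16 Wnt genes, 4 rose and 2 fell. RSPO1, which strengthens Wnt signals, had 7.19 and 7.47 FPKM in cRNA28250, against 0.22 FPKM in c5NC. It had 6.92 and 5.28 FPKM in c3NC and 10.13 and 10.68 FPKM in cKDmix, so c5NC alone was low. The secreted Wnt antagonist gene WIF1 had 3.23 and 1.77 FPKM in cRNA28250, against 0.04 FPKM in c5NC, and SFRP4, another antagonist, had 864 and 560 FPKM, against 145 FPKM. For SFRP4 the c3NC libraries stood higher still, at 2448 and 1658 FPKM. DKK3, a secreted protein of the Dickkopf family, had 46.4 and 47.0 FPKM in cRNA28250, against 10.9 FPKM in c5NC, both below the c3NC libraries at 51.5 and 65.2 FPKM. LEF1, the nuclear effector, fell to 1.29 and 1.72 FPKM in cRNA28250, against 5.22 FPKM in c5NC.

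In the insulin-like growth factor (IGF) axis 3 of 14 genes rose and 1 fell. IGFBP4, an IGF-binding protein, had 22.8 and 23.6 FPKM in cRNA28250, against 4.89 FPKM in c5NC, and PAPPA, the protease that cleaves it, had 5.46 and 2.88 FPKM, against 0.07 FPKM. IGFBP5, which is made in the involuting mammary gland, fell to 287 and 284 FPKM in cRNA28250, against 1181 FPKM in c5NC (−2.05 ± 0.36, limma, Benjamini-Hochberg adjusted p = 0.0154). The c3NC libraries had 27.3 and 30.9 FPKM of IGFBP4, above the overexpressing ones, and 260 and 427 FPKM of IGFBP5, which overlapped the overexpressing ones.

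Of 18 TGF-beta and BMP genes, the receptor gene TGFBR1 rose to 10.5 and 11.4 FPKM in cRNA28250, against 3.54 FPKM in c5NC. The co-receptor gene TGFBR3 fell to 15.4 and 13.3 FPKM in cRNA28250, against 40.6 FPKM in c5NC, and the BMP antagonist gene GREM1 fell to 0.03 and 1.35 FPKM, against 4.63 FPKM. Among 14 metalloproteinases and inhibitors MMP3 and MMP1 rose and ADAMTS4 fell. MMP3, or stromelysin, had 27.1 and 9.68 FPKM in cRNA28250, against 0.26 FPKM in c5NC, with 31.2 and 22.9 FPKM in c3NC. Here c5NC again stood alone. ADAMTS4, which cuts the proteoglycan aggrecan, had 3.30 and 2.05 FPKM in cRNA28250, against 17.8 FPKM in c5NC.

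Inflammatory genes gave 3 called higher and 2 lower of 16. TNFAIP6, a hyaluronan-binding protein, had 22.4 and 38.6 FPKM in cRNA28250, against 6.02 FPKM in c5NC. The cytokine gene IL6 had 6.08 and 4.0 FPKM in cRNA28250, against 1.06 FPKM in c5NC, and IL1A had 4.64 and 11.1 FPKM, against 45.7 FPKM. IL6 was higher in cKDmix, at 23.6 and 20.3 FPKM, and in c3NC, at 13.8 and 12.3 FPKM, than in the overexpressing libraries. NFKBIA, the inhibitor of NF-kB, fell to 85.3 and 79.3 FPKM in cRNA28250, against 210.1 FPKM in c5NC. In the complement list of 9 genes, C5AR1 fell, and the C1 inhibitor gene SERPING1 rose to 24.0 and 15.9 FPKM in cRNA28250, against 0.71 FPKM in c5NC. CFB, complement factor B, had 3.01 and 2.60 FPKM in cRNA28250, against 0.03 FPKM in c5NC, and 3.76 and 4.59 FPKM in c3NC.

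Interferon-stimulated genes gave 3 called higher of 29 and none lower, with 22 of the 29 above c5NC in both overexpressing libraries (median 0.47). Besides LY6E these were XAF1, at 2.64 and 2.67 FPKM in cRNA28250, against 0.22 FPKM in c5NC, and HERC6, at 8.65 and 4.8 FPKM, against 0.95 FPKM. MX1, an antiviral GTPase, had 47.5 and 26.1 FPKM in cRNA28250 and 16.9 FPKM in c5NC and was not called, and cKDmix had 91.8 and 97.6 FPKM. With c3NC as the control, 5 genes of the list were called higher.

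Milk and lipid genes were mostly not called. Of 27 milk fat genes 2 rose and 2 fell. VLDLR, a lipoprotein receptor, had 16.5 and 12.2 FPKM in cRNA28250, against 0.95 FPKM in c5NC, and ACSL1, which activates fatty acids, had 6.30 and 6.27 FPKM, against 2.65 FPKM. VLDLR had 11.49 and 11.34 FPKM in c3NC and 9.48 and 9.90 FPKM in cKDmix, so c5NC alone was low. ACSL1 was no longer called under quantile normalization or median ratio scaling. PPARG, the regulator of fat cell formation, fell to 3.75 and 7.57 FPKM in cRNA28250, against 40.1 FPKM in c5NC. The acetate-activating enzyme gene ACSS2 fell to 2.68 and 3.97 FPKM in cRNA28250, against 10.3 FPKM in c5NC. PPARG had 0.50 and 0.39 FPKM in c3NC, so its direction against that group was the opposite one. The lipid droplet gene CIDEC, of the adipocyte list of 4, rose to 13.7 and 14.7 FPKM in cRNA28250, against 3.61 FPKM in c5NC. None of 20 sterol synthesis genes was called (limma), and 7 had an unadjusted p under 0.05, against 2701 of all 11450 genes compared. Of the milk protein list, 2 genes could be compared, XDH and MFGE8, and neither was called. XDH had 83.6 and 76.8 FPKM in cRNA28250 and 94.6 FPKM in c5NC.

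Hypoxia genes were called in both directions, with 2 of 22 higher and 4 lower (median −0.28). Both cRNA28250 libraries lay below c5NC in 12 of the 22 and above it in 3. The 2 that rose were VEGFA and NDUFA4L2. VEGFA, the angiogenic factor, had 56.0 and 54.4 FPKM in cRNA28250, against 19.7 FPKM in c5NC, but 86.0 and 76.2 FPKM in c3NC. NDRG1 fell to 124 and 80.4 FPKM in cRNA28250, against 343 FPKM in c5NC, and the kinase gene PDK1 fell to 17.3 and 15.8 FPKM, against 35.0 FPKM. NDRG1 had 96.9 and 105 FPKM in c3NC and 96.4 and 91.75 FPKM in cKDmix, within the overexpressing range. ANGPTL4, an inhibitor of lipoprotein lipase, fell to 21.2 and 14.4 FPKM in cRNA28250, against 40.2 FPKM in c5NC. It was the 1 hypoxia gene that fell below all 3 controls. Of 25 antioxidant genes, GPX3, GPX7 and SOD3 rose and TXNIP fell. GPX7, a peroxidase of the endoplasmic reticulum, had 20.5 and 16.9 FPKM in cRNA28250, against 0.94 FPKM in c5NC. The c3NC libraries overlapped these at 18.1 and 15.5 FPKM, whereas GPX3 was low in them. TXNIP, the inhibitor of thioredoxin, had 152 and 139 FPKM in cRNA28250, against 649 FPKM in c5NC.

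Growth and housekeeping genes showed few calls. None of 28 mitosis genes was called, nor any of 73 ribosomal protein genes or 58 respiratory chain genes (limma, list medians 0.59, −0.24 and 0.27). At an unadjusted p under 0.05 there were 3, 1 and 9 such genes, against 2701 of all 11450 genes compared. CCNB1, a mitotic cyclin, had 26.4 and 7.52 FPKM in cRNA28250 and 7.74 FPKM in c5NC, so the overexpressing libraries differed more from each other than replicate 2 did from c5NC. Without replicate 2 of cRNA28250 the mitosis median was 1.19, and without replicate 1 it was −0.10. The ribosomal median was 0.20 without replicate 1 and −0.67 without replicate 2. Relative to the median of all genes, the respiratory chain median was 0.27 without replicate 1 and −0.07 without replicate 2. Of 19 p53 targets TIGAR and EDA2R rose and PLK3 and SESN1 fell. TIGAR, which lowers glycolytic flux, had 17.5 and 20.7 FPKM in cRNA28250, against 5.0 FPKM in c5NC. The cKDmix libraries were close to these, at 17.78 and 17.54 FPKM of TIGAR, and the c3NC libraries had 9.28 and 8.26 FPKM. EDA2R, a death receptor family member, had 4.97 and 9.21 FPKM in cRNA28250, against 1.35 FPKM in c5NC, and SESN1, a sestrin, had 1.78 and 3.82 FPKM, against 9.92 FPKM. EDA2R had 8.31 and 12.15 FPKM in cKDmix and 1.77 and 1.73 FPKM in c3NC. The glycolysis list of 18 gave 1 rise, of ENO2, to 28.9 and 24.6 FPKM in cRNA28250, against 6.67 FPKM in c5NC. The lysosome list of 30 gave 1 rise, of the collagen-degrading protease gene CTSK, to 124 and 175 FPKM in cRNA28250, against 39.3 FPKM in c5NC, with 495 and 449 FPKM in cKDmix and 208 and 236 FPKM in c3NC. Neither list gave a fall.

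The machinery that makes and acts with circRNAs and small RNAs gave 1 call among 23 genes. TARBP2, a partner of Dicer, had 8.75 and 10.2 FPKM in cRNA28250, against 3.96 FPKM in c5NC (1.07, limma, Benjamini-Hochberg adjusted p = 0.0477). That share is near the background of 5.40%. The endothelial, macrophage and lymphocyte, and Schwann cell lists had 1, 3 and 2 genes compared, and none was called (limma), with 0, 0 and 1 at an unadjusted p under 0.05.

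The threshold of 1 FPKM decided which genes were compared. Just inside it, ACACB had 0.62 and 1.89 FPKM in cRNA28250 and 1 FPKM in c5NC, and just outside it, CHMP4C had 0.85 and 1.32 FPKM in cRNA28250 and 0.99 FPKM in c5NC. There were 72 genes within 0.04 FPKM inside the threshold and 90 within 0.05 FPKM outside it. The rule is uneven between directions, because a gene under 1 FPKM in both overexpressing libraries cannot enter. Such genes at 1 FPKM or above in c5NC numbered 201, and genes under 1 FPKM in c5NC with both overexpressing libraries at 1 FPKM or above numbered 606.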

How the data were processed

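RNA-seq was made from total RNA, per the labels. The authors deposited 1 FPKM value per gene and library, rounded to hundredths. The sources used here name no aligner, build, gene model or strandedness, and no shared step of 1 read was found in the low values, so depth is unknown and no counting interval is given. Symbols came from a RefSeq table of assembly ARS1.2 (names only), which matched 17007 of 17374 identifiers and left 367. Groups came from sample titles, and c5NC was taken as the control of overexpression from the design text.

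The 12180 genes that reached 1 FPKM in 2 or more of the 7 libraries were fitted together with limma 3.58.1 in R 4.3.3 on log2(FPKM + 1), with 1 mean per group (3 residual and 4.66 prior degrees of freedom) and a variance trend. P-values were Benjamini-Hochberg adjusted over all genes fitted and reflect the spread between libraries alone, which may be technical. Log2 differences understate the change of low genes. No count model was used, as FPKM are not counts. The fit was also run on simulated data with the same spread in every library. The cRNA28250 pair here has a wider spread than the other pairs, so that run does not measure the error in these data.

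The members and the 36 gene lists were chosen with earlier results of these data known. The genes named are the 10 called genes per direction with the largest difference and a higher group mean of at least 2 FPKM, up to 4 members by smallest p of each list with at least 3 called, and the 6 genes averaging at least 10 FPKM with the widest gap between the cRNA28250 libraries. Symbols made of a locus number alone were not named. Genes beyond all 5 other libraries, and all others named, were chosen after their values were seen. Alternatives were a pseudocount of 0.1, other filters and scalings, no trend, other library sets, the replicate number as a block and leaving out each library. Using c3NC as the control was added after seeing the data. A result on the gene lists is not reported here.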

Additional observations from a re-analysis of the deposited data

How the results depend on the processing

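Main counts were 896 genes called, 618 higher, 278 lower and 538 outside all controls. In that order, all 3 control libraries as 1 group gave 190, 174, 16 and 190, no filter gave 507, 352, 155 and 334, the 3 libraries alone gave 217, 158, 59 and 132, and leaving out cKDmix gave 291, 205, 86 and 178. With c3NC as the control, chosen after seeing the data, 516 were called. Quantile normalization gave 374 higher, median ratio scaling 418 lower, and the replicate block 180 lower and 647 in all. Deviations of replicate 1 from its group mean correlated at 0.283 between cRNA28250 and c3NC. The values were −0.152 between cRNA28250 and cKDmix and 0.111 between c3NC and cKDmix. As c5NC has 1 library, it could not be included, so whether the replicate numbers pair the samples is not known. Leaving out 1 library in turn gave ranges of 291 to 2675 called, 205 to 1927 higher, 86 to 748 lower and 179 to 2154 outside all controls. The top of each range came without cRNA28250 replicate 1, and the bottom without a cKDmix library. Without replicate 2 of cRNA28250, 1865 were called, and leaving out a library of a pair takes its spread out of the fit. The c5NC library could not be left out, being the only control. With all 3 controls as 1 group, 7 of 81 named called genes changed direction, namely, on the log2 scale, COLGALT2 (0.45), DIO3 (0.89), PPARG (0.53), SOD3 (−0.42), IL6 (−0.31), STC2 (−0.31) and SFRP4 (−0.27), and 64 were no longer called, since that group spans c5NC and c3NC. MXRA8, NDUFA4L2, GPX3, KLK7, CNN1 and IER3 kept their call and direction under all these alternatives, of which c3NC as the control was not run per gene. MXRA8, KLK7 and CNN1 were under 1 FPKM in c5NC and entered the comparison through the cRNA28250 libraries alone. NDUFA4L2 and GPX3 were chosen by their gap to the other libraries, so the kept calls of these genes are a description. Depth is unknown, so low values carry an error that is not shown.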

Other observations

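Some genes outside the comparison were abundant in c5NC and nearly silent in both overexpressing libraries. In the fit over all genes, 32 genes not compared had an adjusted p under 0.05 (limma, Benjamini-Hochberg), and all 32 were lower in cRNA28250. LAMA3, a laminin chain of epithelial basement membrane, had 0.62 and 0.61 FPKM in cRNA28250, against 13.2 FPKM in c5NC (−3.14 on the log2 scale, limma, Benjamini-Hochberg adjusted p = 0.00112). GNG8, a G protein gamma subunit, had 0.19 and 0.73 FPKM in cRNA28250, against 19.7 FPKM in c5NC. Both genes were chosen after their values were seen.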
